A study of Homo sapiens with 8 samples.

Results

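The HOX genes measured here were the rows of both deposited count tables whose symbol was HOXA, HOXB, HOXC or HOXD followed only by digits, which gave 35 of 18638 gene models. HOXA held 9 of them on chromosome 7, HOXB 10 on chromosome 17 (hg38, 48529444 to 48728749), HOXC 7 on chromosome 12 (53938791 to 54056030) and HOXD 9 on chromosome 2 (176092803 to 176190907). HOXA9, HOXA10, HOXC5 and HOXC6 were not analysed here. By paralog group, the number in the symbol, 12 genes were anterior (1 to 4), 9 were central (5 to 8) and 14 were posterior (9 to 13).

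HOX genes encode homeodomain transcription factors that give cells a position along the head-to-tail axis of the body. Within each cluster the genes lie in the order in which they act along that axis, with low-numbered paralogs toward the head and high-numbered paralogs toward the tail. Silent clusters are held under Polycomb repression, active ones need trithorax methyltransferases such as KMT2A, and in the hindgut the caudal factor CDX2 is a known activator.

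The study profiled nascent RNA with factory-seq, in which RNA still held at sites of transcription is released from nuclei. It covered 8 libraries of 2 established human lines from colorectal tumours. The 2 DLD-1 groups were DLD-1-mAID-mClover-POLR2A(Tet-OsTIR1) cells without auxin (control) and after 24 h of doxycycline followed by 500 µM auxin for 14 h. POLR2A encodes RPB1, the catalytic subunit of RNA polymerase II, and mAID is a degron through which auxin and TIR1 direct its destruction. The HCT116 groups were TOP2A-mAID control cells and TOP2A-mAID cells labelled TOP2B-/-, with 2 libraries in every group. All 4 HCT116 libraries thus carried the degron on TOP2A, a topoisomerase, and the second group was also labelled as lacking its paralog TOP2B. The titles of that group read as control, but its treatment field gives the same 24 h of doxycycline and 14 h of 500 µM auxin. The headers of its count columns also read aux. Auxin, if given, is meant to direct the tagged TOP2A to destruction as well. Genotype, doxycycline, auxin and any loss of TOP2A therefore cannot be told apart in this group. All titles describe asynchronous cells. Nothing in the labels says whether control cells received doxycycline, or whether replicates came from separate cultures, so p-values measure the spread between these libraries only.

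Total counts ranged from 10739622 to 62626875 reads per library, with 14183633 and 10739622 in the auxin-treated DLD-1 libraries. A background density was estimated from 3111 gene models, of at least 5000 bp each, that were among the lowest on their chromosome in the other cell line. Spread over all gene models, it amounted to 0.266 to 9.02% of reads in the 6 other libraries and to 39.5% and 59.5% in the auxin-treated ones. TOP2B was read at 188 and 186 counts per 1000000 reads (CPM) in HCT116 controls and at 134 and 134 CPM in the group labelled TOP2B-/-. POLR2A was read at 218 and 149 CPM in DLD-1 controls and at 194 and 138 CPM after auxin. Auxin acts on the tagged protein, so these RNA values do not show whether RPB1 was lost. Epithelial markers were present in part. KRT18, a keratin of simple epithelium, stood at 112 RPKM (CPM divided by the counted length in kb) or more in every library, but the intestinal markers KRT20, VIL1, LGR5 and CDH17 stood at or below 0.0425 RPKM in all HCT116 libraries. Summed levels of 8 fibroblast markers were 0.220 and 0.596 RPKM in DLD-1 controls, 2.79 and 3.92 after auxin, and 1.56 to 2.60 in HCT116, where COL1A1 gave 1.43 to 2.58. In bulk samples of this kind, fewer cells that transcribe a gene and less RNA per cell cannot be told apart.

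At baseline, the HOX genes took a larger part of nascent RNA in DLD-1 than in HCT116, and HOXB dominated in both. HOX models received 0.120% and 0.121% of reads in the DLD-1 controls and 0.0235% and 0.0244% in the HCT116 controls. HOXB took 80.6% and 79.1% of HOX reads in DLD-1 and 87.9% and 87.7% in HCT116. In CPM, the HOXA genes summed to 233 ± 11.9 in DLD-1 and 16.9 ± 1.78 in HCT116 (mean ± SD, n = 2), and the HOXB genes to 962 ± 5.94 and 210.4 ± 5.10. HOXC went the other way, at 4.12 ± 1.18 CPM in DLD-1 and 11.1 ± 0.426 in HCT116. HOXD was the lowest cluster in HCT116, at 1.25 ± 0.184 CPM, and stood at 5.34 ± 1.68 in DLD-1. The background density differed between replicates, at 0.0196 and 0.0789 RPKM in the DLD-1 controls and 0.0157 and 0.00233 in the HCT116 controls. As multiples of it, HOXD overlapped between the lines, at 7.61 and 2.97 in DLD-1 and 3.17 and 17.3 in HCT116. HOXC stood at 3.70 and 1.39 times in DLD-1 and 16.0 and 102 times in HCT116. HOXA stood at 22.9 times or more and HOXB at 203 times or more in every control. As multiples, both overlapped between the lines, although in RPKM HOXA stood at 5.15 and 5.54 in DLD-1 and 0.360 and 0.417 in HCT116.

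**Figure D1:**
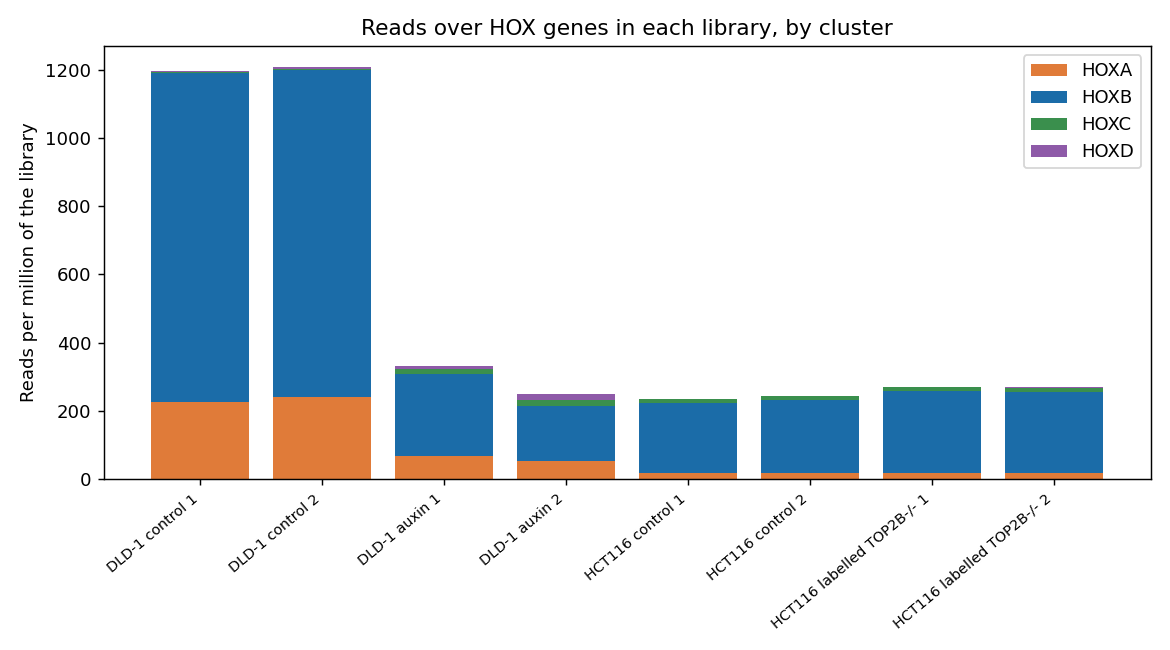
Stacked bars give the reads over HOX genes in each library, in CPM, with 1 colour per cluster. The DLD-1 controls reach about 1204 CPM and the auxin-treated libraries 290 CPM on average. The HCT116 libraries stand near 240 (control) and 270 (labelled TOP2B-/-) CPM, and HOXB forms most of every bar.

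Per unit length, HOXB6, a central-group gene of the thoracic region, was the highest HOX gene in both lines. It stood at 35.5 and 35.5 RPKM in the DLD-1 controls and at 14.5 and 14.8 RPKM in the HCT116 controls, and ranked 80 and 319 among all gene models in the first library of each. In DLD-1 it was followed by HOXB4 (21.5 and 22.7 RPKM), which is used to expand blood progenitors in culture, and by its neighbour HOXB3 (18.7 and 17.9). The next gene, HOXA13, a factor of the distal limb and hindgut, stood at 15.4 and 18.3 RPKM. HOXA13 could not be ranked against HOXB3 or against HOXA5 (15.9 and 17.3 RPKM), a lung and axial patterning gene, since their ranges overlapped. HOXA6 came next with 13.4 and 14.1 RPKM, below HOXA5 without overlap, and HOXB9 followed with 10.2 and 9.90.

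In HCT116 the order was different. HOXB4 again came second, at 3.60 and 4.32 RPKM, and HOXB7 (2.60 and 2.94) and HOXB5 (2.12 and 2.78) followed and overlapped each other. HOXB9 (1.75 and 1.83 RPKM) and HOXC9 (1.60 and 1.73) came next and did not overlap. HOXB3, among the leading genes of DLD-1, stood at 1.22 and 1.18 RPKM, and HOXA13 at 0.485 and 0.628.

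**Figure D2:**
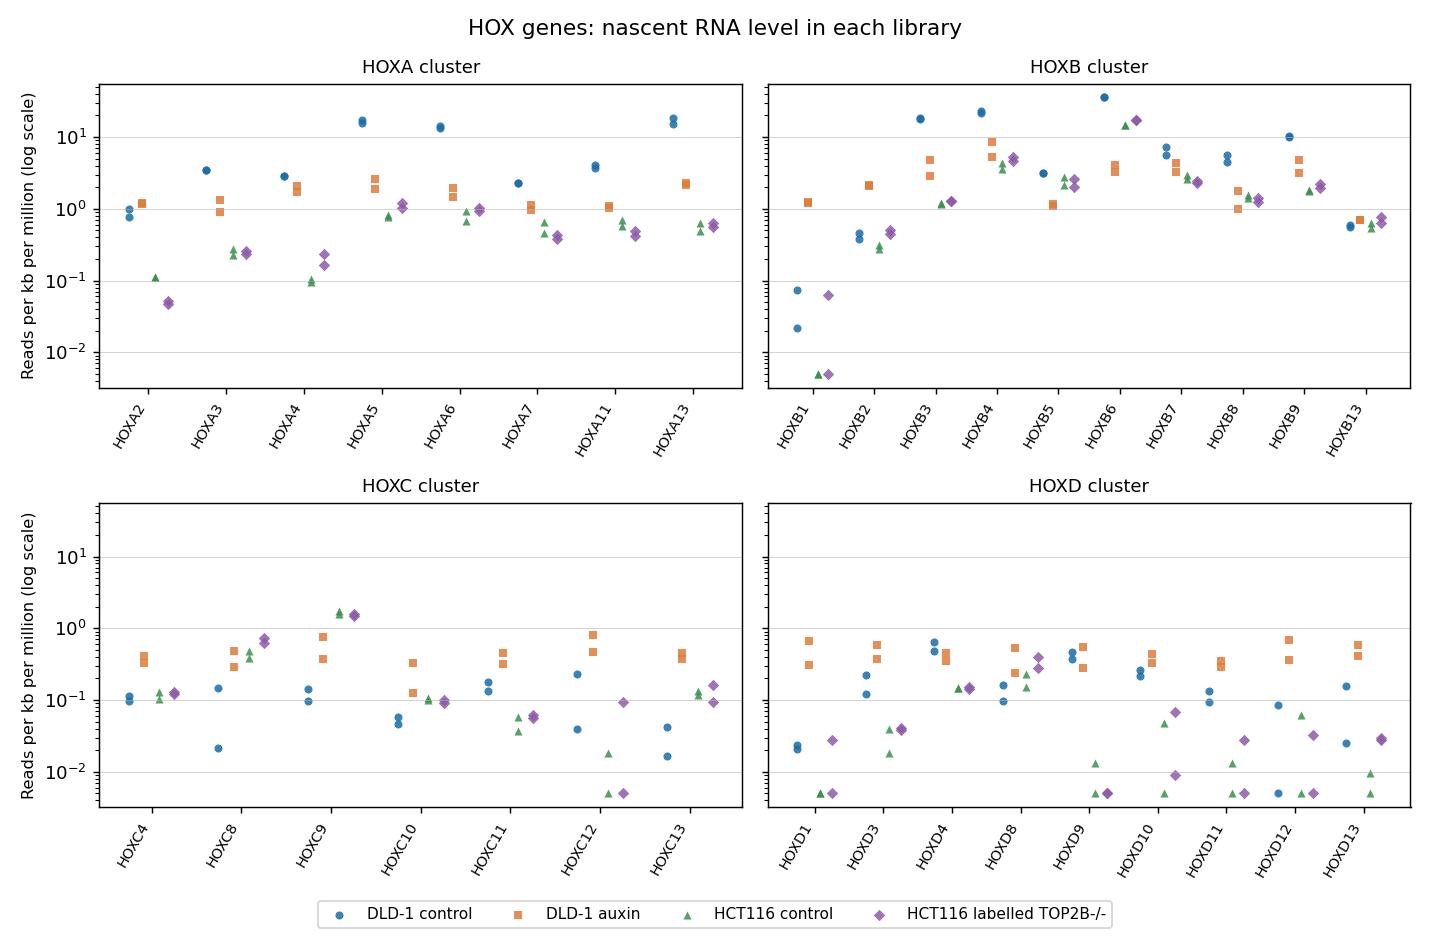
Each point is 1 library and gives a HOX gene's level in RPKM (CPM divided by the counted length in kb) on a log axis, with 1 panel per cluster, 34 of the 35 genes drawn and values below 0.005 drawn at 0.005. Most HOXA and HOXB genes lie highest in DLD-1 controls, HOXC9 lies highest in HCT116, and after auxin the HOXC and HOXD genes in DLD-1 gather between 0.127 and 0.796.

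The baseline test compared the 2 DLD-1 control with the 2 HCT116 control libraries. Of the 35 HOX genes, 29 passed the filter on low counts, 15 were called higher in DLD-1 and 1 was called lower (edgeR's quasi-likelihood test, Benjamini-Hochberg adjusted p under 0.05). Over all 15820 genes tested, 17.5% were called higher in DLD-1 and 28.5% lower. The median log2 fold change (DLD-1 over HCT116) was 1.92 over the HOX genes tested and 0.00 over all genes. Cell line, tagged gene, count table and sequencing run cannot be told apart in this comparison.

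HOXA had the highest median of the clusters, with a log2 fold change of 3.81 over its genes. Of the 9 HOXA genes, 8 were called higher in DLD-1. HOXA13 was 30.1-fold higher (log2 fold change 4.91, SE 0.182, adjusted p 0.00212). HOXA4, an anterior gene, stood at 2.88 and 2.82 RPKM against 0.106 and 0.0964 and was 27.9-fold higher (log2 fold change 4.80, SE 0.357, adjusted p 0.00367), although its HCT116 libraries held only 8 reads each. It passed the count filter through the DLD-1 controls. HOXA5 rested on more reads in HCT116, with 0.770 and 0.817 RPKM from 67 and 78 reads, and was 20.8-fold higher in DLD-1 (log2 fold change 4.38, SE 0.121, adjusted p 0.00205). HOXA6 stood at 0.673 and 0.938 RPKM in HCT116 and was 17.1-fold higher in DLD-1 (log2 4.09, SE 0.222). HOXA3, which patterns pharyngeal tissue, stood at 3.51 and 3.49 RPKM against 0.230 and 0.271 and was 14.0-fold higher (log2 3.81, SE 0.125). In all of these DLD-1 lay above HCT116 without overlap, as did 39.9% of all 18638 gene models, while 38% lay below without overlap.

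The remaining HOXA genes differed less. HOXA11, a gene of the uterus and limb, stood at 3.65 and 4.01 RPKM in DLD-1 and 0.697 and 0.567 in HCT116 (log2 2.59, SE 0.223, adjusted p 0.00444). HOXA2, a hindbrain gene, stood at 0.765 and 0.996 RPKM against 0.112 and 0.113 (log2 2.95, SE 0.523, adjusted p 0.0184), and this call was lost when any 1 of the 4 libraries was left out, while its log2 fold change stayed between 2.86 and 3.23 over all 14 alternatives. HOXA7 was called 4.11-fold higher, a call lost without DLD-1 control 1 or either HCT116 control.

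In HOXB the difference was uneven along the cluster. HOXB3 was 15.2-fold higher in DLD-1 (log2 fold change 3.93, SE 0.109, adjusted p 0.00205). HOXB4 was 5.59-fold higher and HOXB9, at 10.2 and 9.90 against 1.75 and 1.83 RPKM, 5.61-fold higher. HOXB6, HOXB7 and HOXB8 were called at smaller folds, between 2.33 and 3.41, with HOXB7 not called without HCT116 control 2. HOXB2, HOXB5 and HOXB13 were not called, with log2 fold changes of 0.48, 0.37 and -0.02. HOXB13, a posterior gene known from prostate and distal colon, stood at 0.589 and 0.564 RPKM in DLD-1 and at 0.544 and 0.633 in HCT116, with overlap. HOXB1 did not pass the filter, with 2 and 4 reads in DLD-1 and 0 in both HCT116 controls.

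HOXC and HOXD were the lowest clusters in DLD-1, and each gave 1 call. HOXC9, a posterior gene, stood at 0.0984 and 0.142 RPKM in DLD-1 and at 1.60 and 1.73 RPKM in HCT116, without overlap. It was the 1 HOX gene called lower in DLD-1 in this fit, by 13.9-fold (log2 fold change -3.80, SE 0.391, adjusted p 0.0061), and it held 45.8% and 52.2% of HOXC reads in HCT116. Its neighbour HOXC8 gave 0.0218 and 0.148 RPKM against 0.477 and 0.382, a log2 difference of -2.39 that did not pass (SE 1.08, adjusted p 0.153). HOXC11 gave 0.136 and 0.181 RPKM in DLD-1 and 0.0365 and 0.0582 in HCT116, from 4 and 7 reads there, and was not called. HOXD9, which passed the count filter through the DLD-1 controls, was called higher in DLD-1 (adjusted p 0.0318), with 53 and 39 reads against 1 and 0. Pooled per group and scaled by library size, that is a 64.5-fold ratio with an exact 95% interval, for counting error only, of 11.3 to 2570, and the call was lost when any 1 library was left out. HOXD4 (0.487 and 0.649 against 0.147 and 0.149 RPKM) and HOXD10 (0.216 and 0.264 against 0.0473 and 0) lay higher in DLD-1 without overlap, and neither was called. Some alternatives called more genes. The fit of all 8 libraries called 22 HOX genes, HOXC8 (adjusted p 0.0382) and HOXC13 among 3 lower and HOXD4 (adjusted p 0.0155) among 19 higher, and background subtraction called HOXC13 lower and HOXD4 higher (adjusted p 0.0257) as well.

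**Figure D3:**
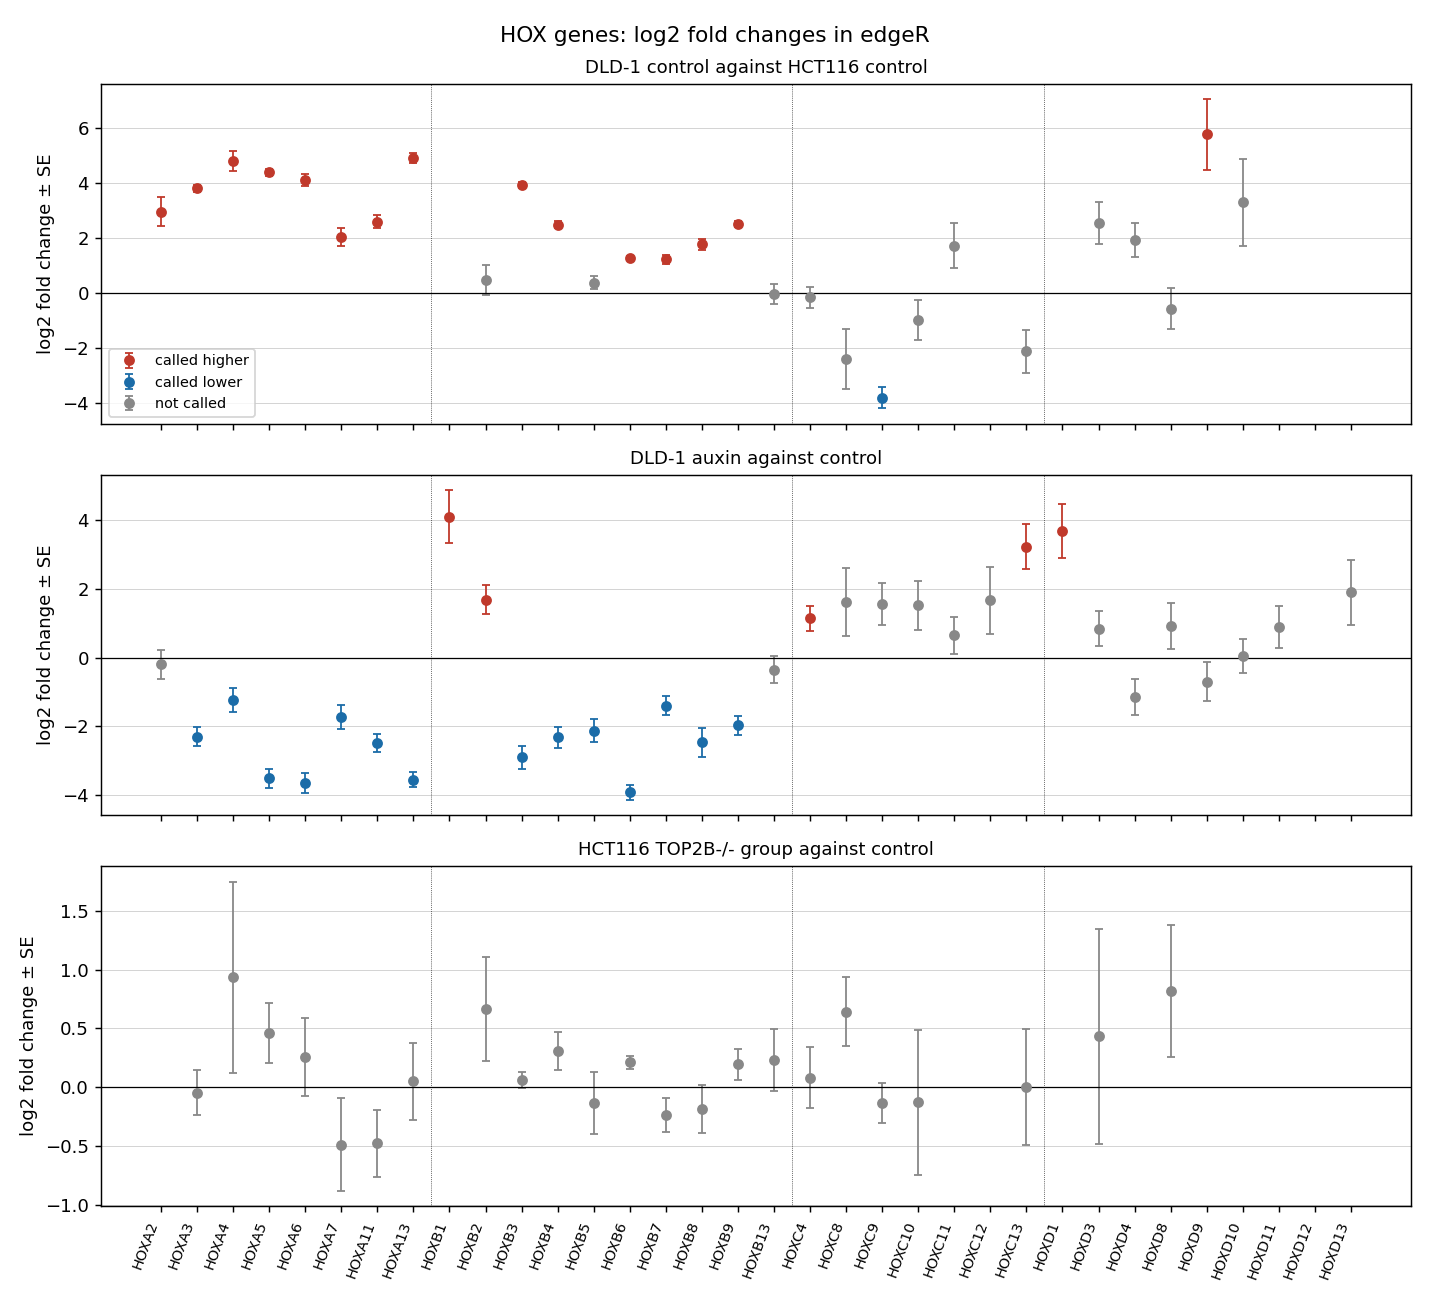
Points give the edgeR log2 fold change of the HOX genes tested that are reported here, with bars of 1 SE, in cluster and paralog order for the 3 comparisons, whose y axes differ in range. Called genes are coloured. The baseline panel shows 15 calls above 0 and 1 below, the auxin panel 5 above and 14 below, and the TOP2B-/- panel none.

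Several genes of known HOX regulation also differed between the lines. The counts below stand beside 17.5% called higher in DLD-1 and 28.5% called lower over all genes tested. Of 25 trithorax and activator genes, 23 were tested, 8 were higher in DLD-1 and 4 lower. CDX2, the caudal activator, stood at 8.34 and 8.11 RPKM in DLD-1 and at 0.659 and 0.739 in HCT116 (log2 3.56, SE 0.121, adjusted p 0.00208), and the elongation factor subunit MLLT3 was higher by 6.49 on the log2 scale. Of 31 Polycomb genes, 4 were higher and 17 lower in DLD-1, led by PHC2 (-2.08), PHF1 (-1.94) and PCGF3 (-1.36). Of the 12 HOX cofactors (PBX, MEIS, PKNOX and TSHZ genes), 2 were higher and 5 lower, with MEIS3 at -3.74 the largest. Of 13 neighbouring genes tested, 4 were higher and 4 lower. The largest was EVX1, the homeobox gene next to HOXA13, with 214 and 157 reads in DLD-1 and 1 in each HCT116 control.

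Promoter sequence from RefSeq (GRCh38.p14) was matched for 17 HOX genes, and for 13 of them the annotated start lay within 100 bp of the start of the counted gene model. In the 250 bases upstream of those 13 starts, the number of CG dinucleotides ranged from 8 to 40, and 11 of the 13 exceeded 11, the median of 35116 RefSeq promoters. A CCAAT motif on either strand was present in 10 of the 13 and in 32% of all promoters, and a GGGCGG motif in 8 of the 13 and in 42.6%. The sequences below, written 5′ to 3′ on the gene's own strand with CCAAT or GGGCGG matches on either strand in capitals, show a pair of genes that were high in DLD-1 and fell after auxin and 1 that was low there. HOXA13 is at chr7:27200092-27200341 on the minus strand, HOXA6 at chr7:27147775-27148024 on the minus strand, and HOXC4 at chr12:54016638-54016887 on the plus strand.
HOXA13: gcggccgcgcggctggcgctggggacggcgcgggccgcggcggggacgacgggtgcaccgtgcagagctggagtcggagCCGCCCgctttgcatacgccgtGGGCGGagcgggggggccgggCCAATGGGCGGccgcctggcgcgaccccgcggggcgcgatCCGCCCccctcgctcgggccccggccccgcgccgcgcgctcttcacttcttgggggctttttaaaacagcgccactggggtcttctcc
HOXA6: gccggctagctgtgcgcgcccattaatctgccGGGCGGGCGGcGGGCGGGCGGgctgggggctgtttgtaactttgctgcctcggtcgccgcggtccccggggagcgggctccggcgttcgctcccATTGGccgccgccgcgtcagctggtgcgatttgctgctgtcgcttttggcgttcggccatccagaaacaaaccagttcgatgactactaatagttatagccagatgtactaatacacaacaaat
HOXC4: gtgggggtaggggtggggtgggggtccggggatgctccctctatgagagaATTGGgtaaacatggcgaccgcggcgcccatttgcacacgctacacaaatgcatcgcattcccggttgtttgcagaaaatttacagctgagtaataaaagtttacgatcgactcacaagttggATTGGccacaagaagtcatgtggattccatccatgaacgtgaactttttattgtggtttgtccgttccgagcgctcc

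The HOXA13 sequence held 40 CG dinucleotides, 1 CCAAT and 4 GGGCGG motifs, and that of HOXA6 held 27, 1 and 4. The HOXC4 sequence held 14 CG dinucleotides, 2 CCAAT and 0 GGGCGG motifs. High CG content was not particular to the transcribed genes. The HOXD1 promoter held 31 CG dinucleotides and 4 GGGCGG motifs, and HOXD1 had 3 and 2 reads in the DLD-1 controls and 0 in the HCT116 controls.

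The comparison of auxin-treated with control DLD-1 cells asks how nascent HOX RNA changes when RPB1 is directed to destruction. The well-transcribed HOXA and HOXB genes fell, while the HOXC and HOXD genes, low in the controls already, lay near the background density after auxin. HOX models went from 0.120% and 0.121% of reads to 0.0332% and 0.0248%. Of the 34 HOX genes tested (all but HOXD12), 14 were called lower and 5 higher, which is 41.2% and 14.7% of those tested, beside 35.0% called lower and 32.2% called higher over all 17625 genes. The share called lower was close to that of all genes, and the HOX median log2 fold change of -0.27 compares with -0.06 for all genes. The calls split by cluster: 7 of 9 HOXA and 7 of 10 HOXB genes were called lower, and 0 of 7 HOXC and 0 of 8 HOXD genes tested. They split by control level as well: HOXA2, HOXB1, HOXB2 and HOXB13, at or below 0.996 RPKM in the controls, were not called lower either. The background density rose after auxin, and its part in which genes were called lower was not tested. No HOXC or HOXD gene stood above 0.649 RPKM in a control, so cluster and control level cannot be told apart in this split. DESeq2 also called 14 HOX genes lower and 5 higher, and 0 uncalled HOX genes had an unadjusted p under 0.05 in edgeR. These are shares relative to each library's total, so they say nothing of the absolute loss of RNA. Fold changes below are on the TMM scale of edgeR, which centres on the bulk of genes, and so differ from the ratio of the RPKM values beside them, which use library totals. Scaling by library totals alone moved the median of all genes from -0.06 to 0.57 and the share of calls that were higher from 47.9% to 69.1%, and gave 12 HOX genes lower and 7 higher.

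HOXB6, HOXA6, HOXA13 and HOXA5 had the lowest log2 fold changes. HOXB6 went from 35.5 and 35.5 RPKM to 4.05 and 3.28, without overlap, keeping 10.3% of its control RPKM (log2 fold change -3.91 on the TMM scale, SE 0.22, adjusted p 0.00421). With library totals alone its log2 fold change was -3.28, and after background subtraction -2.79. It went from 27.4% and 27.1% of HOX reads to 11.3% and 12.2%. HOXB3 went from 18.7 and 17.9 RPKM to 4.72 and 2.83 (log2 -2.90, SE 0.331, adjusted p 0.00501). HOXB4 kept the highest level of any HOX gene after auxin, at 8.44 and 5.25 RPKM from 21.5 and 22.7 (log2 -2.32, SE 0.302). HOXB8 went from 4.52 and 5.57 RPKM to 1.79 and 1.00 (log2 -2.46, SE 0.419), and lost its call without either auxin library. The other HOXB genes called lower were HOXB5, HOXB7 and HOXB9, at log2 fold changes of -2.12, -1.40 and -1.97, the calls of HOXB5 and HOXB7 being lost without either auxin library. HOXB7 was also not called with library totals alone, nor after background subtraction, where its log2 fold change was -0.28 (adjusted p 0.318). All of these genes lay below the controls without overlap, as did 30.4% of all 18638 gene models, while 56% lay above without overlap.

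In HOXA, HOXA13, HOXA5 and HOXA6 had the lowest fold changes. HOXA13 went from 15.4 and 18.3 RPKM to 2.32 and 2.13 (log2 -3.55, SE 0.209, adjusted p 0.00421). HOXA5 went from 15.9 and 17.3 RPKM to 2.59 and 1.89 (log2 -3.51, SE 0.272), and HOXA6 from 13.4 and 14.1 RPKM to 1.93 and 1.44 (log2 -3.65, SE 0.284). These 3 genes kept 12.3 to 13.5% of their control RPKM. HOXA11 kept 27.8%, going from 3.65 and 4.01 RPKM to 1.02 and 1.10 (log2 -2.48, SE 0.272, not called without auxin library 1), and HOXA3 kept 31.5%, going from 3.51 and 3.49 to 1.31 and 0.894 (log2 -2.29, SE 0.268). HOXA4 and HOXA7 were called at log2 fold changes of -1.23 and -1.74, and both lost the call without either auxin library and after background subtraction, HOXA4 also with library totals alone. HOXA2 was not called, with a log2 fold change of -0.20.

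HOXB1, HOXB2, HOXC4, HOXC13 and HOXD1 were called higher, and all 5 calls were lost when either auxin library was left out. Of these, HOXB1, HOXC13 and HOXD1 had at most 12 reads in a control library and passed the count filter through the auxin libraries. HOXB1, the most anterior HOXB gene, was read at 0.0218 and 0.0739 RPKM in controls (2 and 4 reads) and at 1.25 and 1.21 after auxin (26 and 19 reads), a log2 fold change of 4.10 (SE 0.763, adjusted p 0.0141). HOXD1 went from 0.0211 and 0.0239 RPKM to 0.311 and 0.656 (log2 3.68, SE 0.776) and HOXC13 from 0.0165 and 0.0419 to 0.373 and 0.456 (log2 3.23, SE 0.645). HOXB2, a hindbrain gene, was called at a log2 fold change of 1.69, and HOXC4 at 1.15.

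The background density rose alongside, from 0.0196 and 0.0789 RPKM in controls to 0.345 and 0.521 after auxin, so each level was also read against it. In the controls the HOXC genes already stood at 0.532 to 6.93 times background, with medians of 2.39 and 1.80, and the HOXD genes at 0 to 24.9 times, with medians of 4.89 and 2.06. HOXC13 (0.841 and 0.532) and HOXD1 (1.08 and 0.303) were near or below it in controls as well. After auxin the HOXC genes stood at 0.245 to 1.53 times background and the HOXD genes at 0.561 to 1.31 times, HOXC13 (1.08 and 0.876) and HOXD1 (0.900 and 1.26) among them. HOXA genes stood at 1.72 to 7.50 times and HOXB genes at 1.35 to 24.5 times. HOXB1 stood at 1.11 and 0.938 times background in controls and at 3.62 and 2.32 times after auxin, and was the 1 gene of HOXA and HOXB whose ratio was higher after auxin in both libraries. HOXB2 went from 19.2 and 5.79 times to 5.93 and 4.06. The summed markers of leukocytes (0.298 and 0.636 to 2.99 and 3.71 RPKM) and of endothelium (0.105 and 0.324 to 2.82 and 2.97) rose as well. After auxin PECAM1 (1.66 and 1.30 RPKM) and CD14 (1.46 and 1.46) were the highest of these markers, above the background density. PTPRC (0.109 and 0.175) was the lowest, below it. How much of these rises was background was not tested. Of these genes, 4 of 6 and 4 of 4 were called higher, as were 7 of the 8 fibroblast genes, beside 32.2% of all genes tested.

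**Figure D4:**
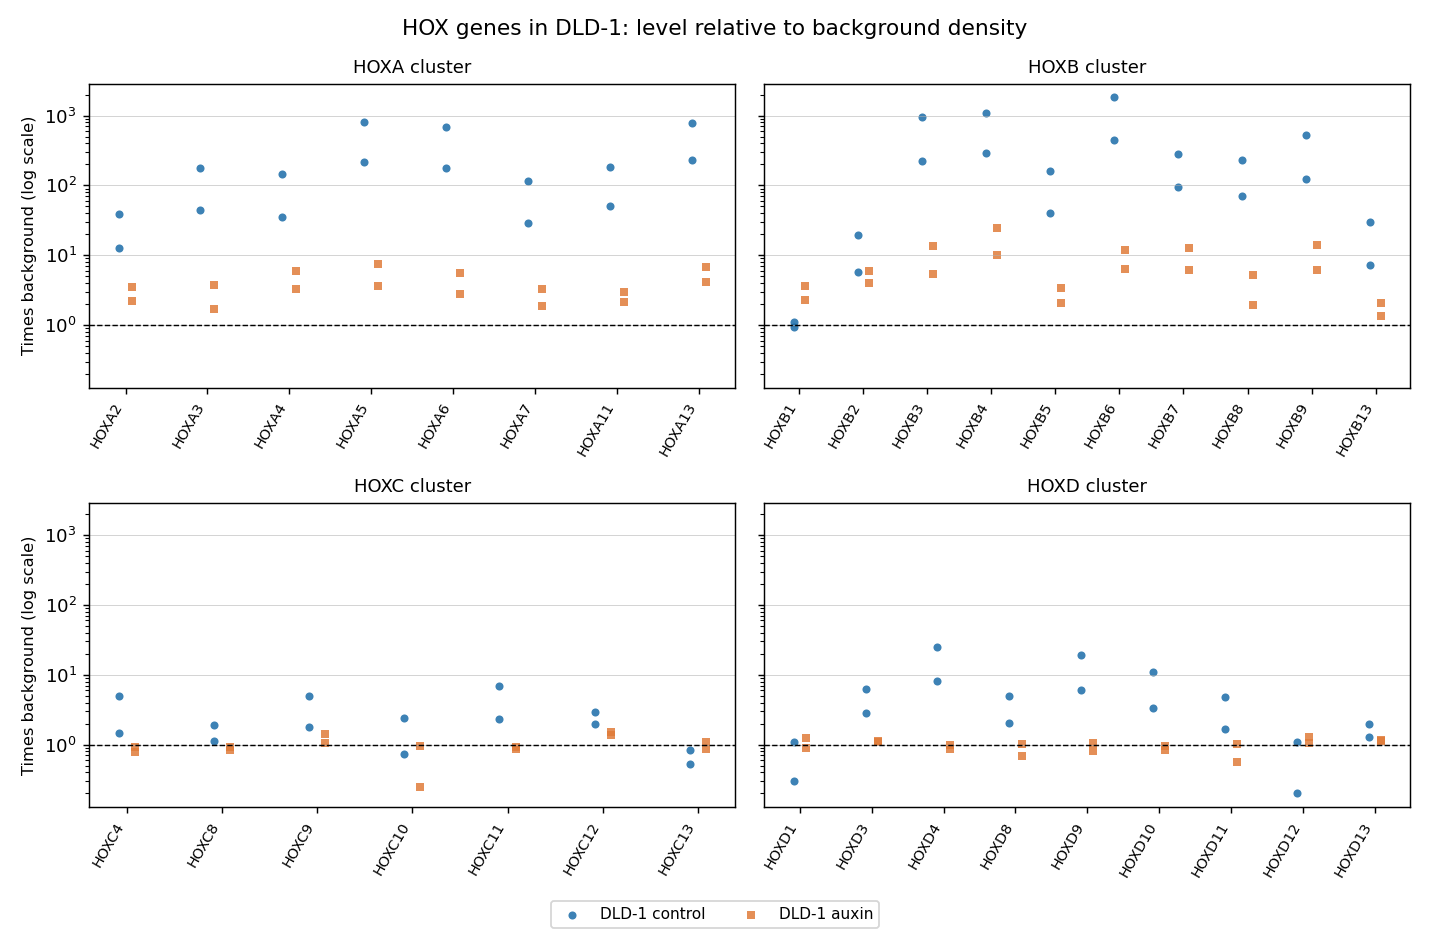
Each point is 1 DLD-1 library and gives a HOX gene's reads as a multiple of the reads expected from the background density, on a log axis with 34 of the 35 genes drawn, values below 0.2 drawn at 0.2 and a dashed line at 1. HOXA and HOXB genes drop from up to 1815 times to at most 24.5 times, and the HOXC and HOXD genes settle around the line after auxin.

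When the expected background was subtracted from the counts, 24 HOX genes could be tested, of which 14 were called lower. HOXB1 (log2 8.78, adjusted p 0.0141) and HOXB2 (log2 2.87, adjusted p 0.0123) were still called higher. HOXB1, at 1.11 and 0.938 times background in the controls, had no control reads left, so the size of its rise is set by that floor. HOXC13 and HOXD1 had too few reads left to be tested. HOXC4 turned to a called fall, as did HOXD4 and HOXD10, which had not been called on the raw counts. After auxin HOXC4 stood at 0.939 and 0.779 times background, HOXD4 at 1.00 and 0.876 and HOXD10 at 0.964 and 0.844. Subtraction thus left them no reads in either auxin library, and the size of these falls is set by that floor. Before subtraction, HOXD4 had 9 reads in each auxin library against 56 and 44 in controls, HOXD10 had 15 in each against 43 and 31, and HOXD9 had 9 and 13 against 53 and 39. HOXC8 (0.0218 and 0.148 RPKM to 0.289 and 0.484), HOXC9 (0.0984 and 0.142 to 0.370 and 0.746) and HOXC11 (0.136 and 0.181 to 0.321 and 0.452) were not called on the raw counts, nor was any of them tested after subtraction.

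Of all alternatives run, 7 of the 19 auxin calls held in every one that tested the gene, namely the falls of HOXA3, HOXA5, HOXA6, HOXA13, HOXB3, HOXB4 and HOXB6. At baseline this held for 12 of 16 calls, namely HOXA3, HOXA4, HOXA5, HOXA6, HOXA11, HOXA13, HOXB3, HOXB4, HOXB6, HOXB8, HOXB9 and HOXC9. Reads of HOXA3 to HOXA7, HOXB2 to HOXB6 and HOXC4 may include those of overlapping RefSeq genes such as HOXA-AS2, HOXA-AS3, HOXB-AS1 and HOXB-AS3, and the sources used here do not say whether counting used strand. Such an overlap was found for 18 of the 35 genes, HOXA11, HOXA13, HOXB7, HOXB8, HOXB9 and HOXC9 not among them. Some of the overlapping genes are HOX genes on the same strand, which strand use would not separate. RefSeq HOXA3 spans parts of HOXA4, HOXA5 and HOXA6, HOXB3 of HOXB4, and HOXD3 of HOXD4, although the counted models themselves did not overlap. The span of the HOXC4 model overlaps RefSeq HOXC5, HOXC6 and MIR615, so reads counted for HOXC4 may be theirs.

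Among the regulators, 22 of 31 Polycomb genes were called lower after auxin and 0 higher, led by ASXL1 (-2.34), CBX8 (-2.25), PCGF1 (-2.19) and PCGF2 (-2.03). This and the counts below stand beside 35.0% called lower and 32.2% called higher over all genes tested. Of 25 trithorax and activator genes, 19 were called lower and 2 higher. MLLT3 fell by 3.55 on the log2 scale, and CDX2 went from 8.34 and 8.11 RPKM to 1.27 and 0.957 (log2 -3.51, SE 0.253, adjusted p 0.00421). RARB (2.91) and CDX1 (2.85) were the ones called higher. Of the 12 cofactors 5 were higher and 3 lower, with TSHZ3 (2.68), PKNOX2 (2.57), MEIS1 (2.45) and TSHZ2 (2.36) leading. After auxin these stood near the background density of 0.345 and 0.521 RPKM, with TSHZ3 at 0.315 and 0.502, PKNOX2 at 0.356 and 0.517, MEIS1 at 0.503 and 0.710 and TSHZ2 at 0.427 and 0.628, as did CDX1 at 0.163 and 0.461 and RARB at 0.513 and 0.647. The part of the background in these rises was not tested. Of 15 neighbouring genes tested, 4 were higher and 7 lower, among them EVX2 (3.04, at 0.347 and 0.338 RPKM after auxin), beside HOXD13, and MTX2 (-2.54), beyond the other end of HOXD.

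In HCT116, the group labelled TOP2B-/- was compared with the TOP2A-mAID control. The comparison covers loss of TOP2B, with or without doxycycline, auxin and the destruction of TOP2A that auxin is meant to bring. HOX models received 0.0235% and 0.0244% of reads in controls and 0.0271% and 0.0270% in the TOP2B-/- group. Of the 24 HOX genes tested, 0 were called by edgeR and 0 by DESeq2, and 1 had an unadjusted p under 0.05 in each. Over all 15273 genes tested, 1.75% were called higher and 1.66% lower. The HOX median log2 fold change was 0.07, beside 0.03 for all genes.

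The gene with the unadjusted p under 0.05 was HOXB6. It stood at 14.5 and 14.8 RPKM in controls and at 17.5 and 17.1 RPKM in the TOP2B-/- group, without overlap, a 1.16-fold difference (log2 fold change 0.21, SE 0.0529, p 0.016, adjusted p 0.127). Over 14 alternatives its adjusted p ranged from 0.0353 to 0.86, and it passed in the 1 fit on background-subtracted counts. HOXB4 gave 3.60 and 4.32 against 4.70 and 5.29 RPKM (log2 0.31, SE 0.163, adjusted p 0.354), and HOXB3 gave 1.22 and 1.18 against 1.28 and 1.26 (log2 0.06, SE 0.0644). Neither pair of ranges overlapped, and neither difference passed. Of all 18638 gene models, 28.2% lay above the controls without overlap and 22.7% below.

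Lower genes were less precisely measured. HOXA5 stood at 0.770 and 0.817 RPKM in controls and 1.20 and 1.02 in the TOP2B-/- group (log2 0.46, SE 0.258, adjusted p 0.378), HOXA6 at 0.673 and 0.938 against 0.945 and 1.02, and HOXA13 at 0.485 and 0.628 against 0.624 and 0.550. HOXC8 stood at 0.477 and 0.382 RPKM against 0.732 and 0.630 (log2 0.64, SE 0.296, adjusted p 0.3), and HOXC9 at 1.60 and 1.73 against 1.58 and 1.51. HOXA4 had the largest fitted difference, 0.94, with an SE of 0.814 on 8 to 17 reads per library. Of the 11 HOX genes not tested, HOXD4 had 9 or 10 reads per library, HOXD9 at most 1, HOXD10 at most 7 and HOXC11 4 to 7. The DESeq2 fit and the edgeR fit with no count filter tested all 35 HOX genes and called 0.

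Of the regulators in HCT116, 3 of 31 Polycomb genes were called higher, PHC2 (0.76), JARID2 (0.54) and RNF2 (0.40), and ASXL1 was called lower (-0.69). Over all genes tested, 1.75% were called higher and 1.66% lower. Of the 12 cofactors 1 was called higher, PBX3 (1.12), and 1 lower. Of the trithorax and activator genes 0 of 23 tested were called, and of the neighbouring genes 0 of 12.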

How the data were processed

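Factory-seq RNA went into TruSeq RNA libraries. Per line, 1 table of raw counts over RefSeq gene models was deposited by the authors, with introns included and 1443 models counted over less than their span. STAR, DESeq2 and the build hg38 are credited to the submitters' processing notes, while the sources used here give no counting settings, strand use or versions. The deposited tables of changed genes, which hold fold changes, p-values, adjusted p-values and normalized values, were not used. The paper given with the data describes another experiment.

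Counts were fitted per comparison on its 4 libraries with edgeR 4.0.16 in R 4.3.3 (filterByExpr, TMM, quasi-likelihood, two-sided, Benjamini-Hochberg at 0.05 over all genes tested). Standard errors came from the F statistic. The fits were tested on simulated data. RPKM used the counted length and library total. Background was the read density of 3111 silent gene models, the lowest 20% per chromosome in the controls of the other line. Library values were printed for the 3 highest HOX genes per cluster and up to 12 called genes per comparison by fold change, and up to 4 called genes of each other list were named. Values of some genes are not reported here. Genes outside that rule were named after their values were seen. The HOX genes, gene lists and tests were chosen with earlier results of these data known. Alternatives were RLE and total-count scaling, DESeq2 1.42.0, other filters, libraries left out, a replicate block, a fit of all 8 libraries, background subtraction and, chosen after seeing the data, 1 RUVs factor in DESeq2 and a crossed block.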

Additional observations from a re-analysis of the deposited data

How the results depend on the processing

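Of the auxin comparison, 11855 genes and 19 HOX genes were called. With 1 library left out these counts ran from 2393 to 12732 and from 8 to 26, the lowest without auxin replicate 1 (2393, 8 HOX) and auxin replicate 2 (3165, 9 HOX), each of which leaves a lone library assumed to vary like the controls. With 1 RUVs factor they were 1471 and 9. HOXC4 reversed to -8.09 after background subtraction, which left HOXC4 and HOXD10 no reads in the auxin libraries. HOXD10 reversed to -7.15 after background subtraction, to -0.51 with RUVs, to -0.06 without control replicate 1 and to -0.12 without auxin replicate 2, and reached 0.30 without auxin replicate 1. HOXC8 and HOXC11 reversed to -2.81 and -0.18 with RUVs.

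In HCT116 the 521 calls over all genes became 1849 with DESeq2, 854 with a mean CPM of at least 1, 5 in the fit of all 8 libraries, 2289 after background subtraction (with 1 HOX gene), 906 with RUVs, and 0 to 2519 with 1 library left out: 2519 without control replicate 1 and 0 without either TOP2B-/- replicate. The counts of HOX genes called with 1 library left out stayed at 0 to 0. HOXA13 reversed to -0.15 without control replicate 1 and -0.10 without TOP2B-/- replicate 1 (highest 0.21), and HOXB3 to -0.0033 without control replicate 2 and -0.0070 without TOP2B-/- replicate 1 (highest 0.087).

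At baseline the 7286 calls became 3873 with RUVs and 3869 to 6285 with 1 library left out, the lowest without HCT116 control replicate 2, with 12 to 14 HOX genes. RLE scaling moved the median of all genes from 0.00 to 0.11. The causes were not tested.

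Replicate numbers are not stated to mark a shared day or batch, and deviations of same-numbered libraries correlated at 0.58 in DLD-1, -0.82 in HCT116 and -0.69 at baseline across 14485 genes. With a replicate block 12963, 0 and 4105 genes were called, with 19, 0 and 13 HOX genes. With the numbers crossed, 1808 were called in HCT116 (0 HOX genes) and 9389 at baseline (17 HOX genes).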
